A study of Mus musculus with 6 samples.

Results

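The Spata (spermatogenesis associated) and Tex (testis expressed) genes are followed here in testes of mice given JQ1, a small molecule that blocks the acetyl-lysine pockets of the BET bromodomain proteins, among them the testis-specific member BRDT. Members were taken by name: every gene whose platform symbol begins with Spata or Tex and a digit. The array carried 62 such genes (28 Spata and 34 Tex) on 94 probes, out of 19057 genes with a probe. A probe was kept where its detection p was under 0.05 in at least 2 of the 5 mice, and the brightest such probe then stood for its gene. By this rule 56 members on 81 kept probes were measured, among 11755 measured genes. Spata1, Spata5, Spata31d1b, Tex12, Tex15 and Tex28 had no kept probe. Of the 56 representative probes 54 were detected in all 5 mice. The exceptions were Spata2, detected in 3 JQ1-treated mice and 1 control, and Spata9, detected in 1 JQ1-treated mouse and 1 control.

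The study hybridized total RNA of whole testes to 1-color bead arrays of 45281 probes. The treated group was 3 male C57/129 mice that received daily JQ1 injections of 50 mg/kg over 6 weeks, ending at 12 weeks of age. The control group was 2 male C57/129 mice, also followed over 6 weeks to 12 weeks of age. The methods describe vehicle injections for controls. Control mouse 1 was on 2 arrays, a technical pair averaged to 1 value, so 6 arrays stand for 5 mice. Of the marker lists used to check the tissue, 11 of 12 elongating spermatid genes and 12 of 17 Sertoli cell genes were measured. Between 17799 and 20326 probes were detected per array, and median raw signals lay between 101.8 and 142.2. Values below are log2 signals after background correction and quantile normalization, and a fold change is the JQ1 mean minus the control mean on that scale. A gene passed at a Benjamini-Hochberg adjusted p under 0.05 from limma's moderated test, which was fitted to all kept probes together. With 3 mice against 2, an exact two-sided permutation test of a single gene cannot go below p = 0.1, so each call rests on the spread that limma shares across probes.

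Spermatogenesis runs from dividing spermatogonia through meiotic spermatocytes to round and then elongating spermatids, which reshape into sperm. The Spata and Tex names record where a transcript was found, not what its protein does, and the genes come from unrelated families. Some serve spermatogonia or meiosis, many are switched on only in spermatids, where they build the acrosome, the neck and the tail, and a few are housekeeping genes of nearly every tissue. The members were therefore divided by the stage of expression assigned to them. The classes were spermatogonia and meiosis (8 measured), spermatids (26), broadly expressed (10) and stage not assigned (12). The assignment is uncertain where a member was recorded only as a testis gene. Such members include Tex37, Tex38, Tex44 and Tex45 in the spermatid class, and Tex13a and Tex16 in spermatogonia and meiosis. Tex101, placed in spermatogonia and meiosis, is uncertain too, being recorded in spermatocytes, spermatids and testicular sperm. Because whole testes were profiled, fewer cells of a type and less RNA per cell cannot be told apart in any value below.

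The promoters of 4 members are shown because their genes carry the main results, 2 that were higher and 2 that were lower with JQ1, and because their base composition differs. Each runs from 250 bases before to 50 bases after the first listed RefSeq transcription start in GRCm38.p6, 5′ to 3′ along the gene, with CpG dinucleotides in capitals.
Tex19.2, chr11:121118628-121118927, minus strand: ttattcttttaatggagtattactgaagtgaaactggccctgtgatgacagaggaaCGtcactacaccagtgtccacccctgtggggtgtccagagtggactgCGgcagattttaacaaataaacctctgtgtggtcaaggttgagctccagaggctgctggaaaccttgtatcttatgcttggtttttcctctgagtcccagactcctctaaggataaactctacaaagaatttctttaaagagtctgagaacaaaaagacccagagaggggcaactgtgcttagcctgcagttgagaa
Tex19.1, chr11:121145893-121146192, plus strand: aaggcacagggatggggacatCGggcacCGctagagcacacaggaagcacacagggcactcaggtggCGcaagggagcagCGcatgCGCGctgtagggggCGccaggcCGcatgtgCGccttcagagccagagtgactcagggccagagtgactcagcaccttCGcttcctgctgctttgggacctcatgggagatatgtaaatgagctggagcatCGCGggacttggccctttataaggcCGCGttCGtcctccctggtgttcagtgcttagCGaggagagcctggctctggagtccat
Spata17, chr1:187215397-187215696, minus strand: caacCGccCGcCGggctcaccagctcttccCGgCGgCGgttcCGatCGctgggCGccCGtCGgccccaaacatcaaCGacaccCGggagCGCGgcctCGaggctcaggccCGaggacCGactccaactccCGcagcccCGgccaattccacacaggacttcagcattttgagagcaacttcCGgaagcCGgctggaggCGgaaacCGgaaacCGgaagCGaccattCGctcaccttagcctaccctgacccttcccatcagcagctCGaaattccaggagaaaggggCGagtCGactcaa
Tex38, chr4:115780985-115781284, minus strand: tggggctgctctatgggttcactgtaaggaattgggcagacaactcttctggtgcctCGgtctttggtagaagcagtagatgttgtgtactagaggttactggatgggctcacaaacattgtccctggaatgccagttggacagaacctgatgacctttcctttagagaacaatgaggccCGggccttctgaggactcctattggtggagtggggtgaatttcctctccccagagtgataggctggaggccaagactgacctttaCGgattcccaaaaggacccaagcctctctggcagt
Tex19.2 and Tex19.1 are neighboring paralogs on chromosome 11, and their windows held 2 and 16 CpG. The Spata17 window was CpG-rich, with 30, whereas that of Tex38 held 3. The first listed start of Tex38 lies inside the annotated gene, and sequence at its outer end is not shown.

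Of the 56 measured members, 4 were higher and 18 lower in JQ1-treated testes, and 34 did not pass. The higher share, 7.14%, stands beside 25.0% of all measured genes, and the lower share, 32.1%, beside 21.6%, with 46.6% of all genes called in either direction. The changes were small. One member, Spata17, fell at least 2-fold (1.79%, against 2.83% of all genes), and by limma 0 members rose at least 2-fold (8.41% of all genes), although 4 were higher at an unadjusted p under 0.05. The median change of the members was -0.23 on the log2 scale, against 0.00032 for all measured genes, and 43 members lay below 0 and 13 above. The members were brighter than most genes, with a median log2 level of 10.2 against 7.52 for all measured genes. Over the 16533 probes detected in all 5 mice the median change was -0.082, with -0.24 for the members in that fit. The part of brightness in the members' median was not tested. In JQ1-treated mice 1, 2 and 3 the median distance of the members from the control mean was -0.16, -0.23 and -0.28, so all 3 mice lay on the same side. The mice of the groups did not overlap in 38 members (67.9%, near the 66.0% of all genes), 10 of them higher (33.9% of all genes) and 28 lower (32.0% of all genes) with JQ1. The called members were largely among these: 21 of the 22 did not overlap, the exception being Spata31d1c. Call and overlap rest on the same values, so this count gives the calls no separate support.

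**Figure D1:**
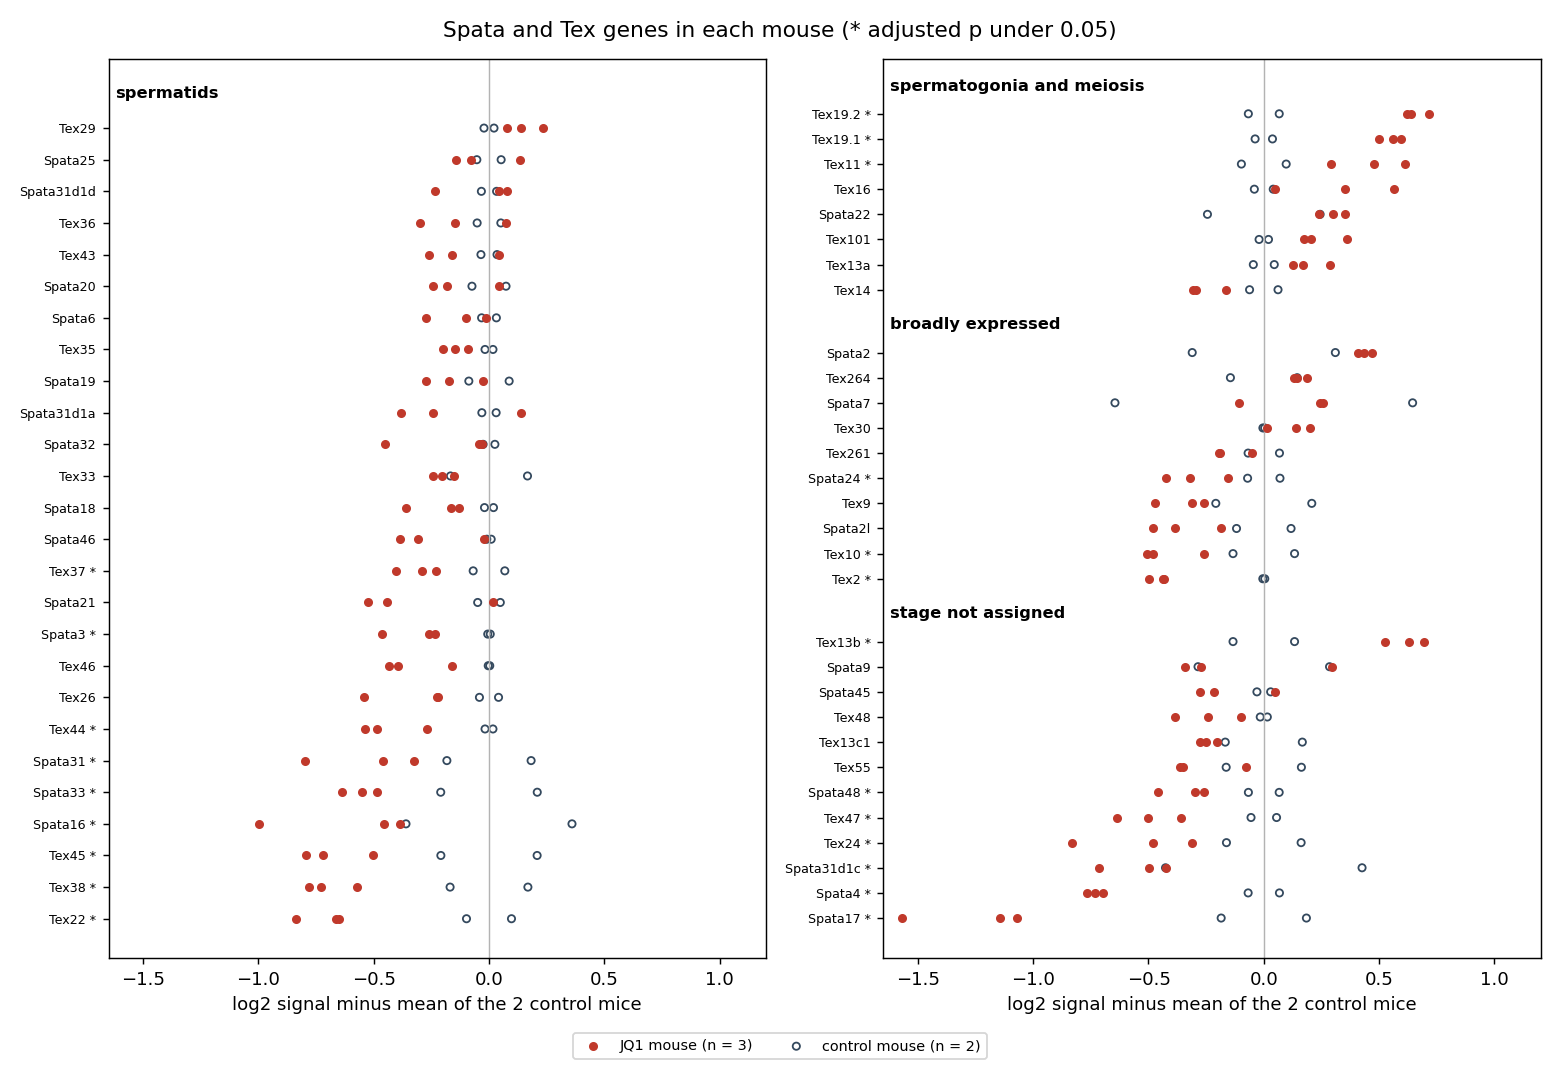
Each row is a measured member, and points give the log2 signal of a mouse minus the mean of the 2 control mice (filled, 3 JQ1-treated mice; open, 2 control mice). In the spermatid panel 25 of 26 members have a mean to the left of 0, whereas 7 of the 8 members of spermatogonia and meiosis lie to the right.

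The number of lower members depended on the scaling and on the mice. With cyclic loess in place of quantile normalization 5 members were higher and 8 lower, and with median centring 5 were higher and 25 lower, against the 4 and 18 given above. Of all 20901 kept probes 5006 were higher and 3728 lower with cyclic loess. With median centring these were 4894 and 3983, against 4505 and 4718 in the main fit. The lower share of the 56 members was thus below that of all kept probes with cyclic loess, and above it with median centring. The median of the members was -0.11 with cyclic loess and -0.32 with median centring. With quantile normalization the lower count was 7 without control mouse 1, 10 without control mouse 2, 10 without JQ1-treated mouse 3, and 12 and 19 without JQ1-treated mice 2 and 1. The number of higher members was 3 or 4 in these fits. Of all kept probes 4852, 3739 and 3746 were lower without JQ1-treated mice 1, 2 and 3. Across the members' probes the 2 control mice differed with an SD of 0.32, pairs of JQ1-treated mice with 0.20 to 0.24, and the 2 arrays of control mouse 1 with 0.15.

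Members of spermatogonia and meiosis were the only class with more members higher than lower. Tex19.2, Tex19.1 and Tex11 rose, by limma 0 members of the class fell (also 0 at an unadjusted p under 0.05), and 5 did not pass. The 3 higher members are 37.5% of the class, against 25.0% of all measured genes. The class median was 0.31, and its median in JQ1-treated mice 1, 2 and 3 was 0.32, 0.33 and 0.40 above the control mean. Tex19.1, a germ cell and placenta gene that restrains retrotransposons, and Tex19.2, its germ cell paralog, were the members with the highest positive values of the class.

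Tex19.2 had log2 signals of 11.52, 11.61 and 11.54 in JQ1-treated mice, against 10.83 and 10.96 in controls. All treated mice lay above both controls, with means of 11.56 ± 0.05 (SD, n = 3) with JQ1 and 10.90 ± 0.09 (SD, n = 2) in controls. The change was 0.66 ± 0.12 (SE), a 1.58-fold increase (limma, adjusted p = 0.000274). Tex19.1 followed with 8.48, 8.54 and 8.58 in JQ1-treated mice and 8.02 and 7.94 in controls. Here too the groups were separate, and the change was 0.55 ± 0.15 (SE; limma, adjusted p = 0.00539). Both calls held in every fit that left out 1 mouse. The probe sequences were not analyzed here, so signal from the paralog cannot be told apart from each gene's own.

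Tex11, an X-linked protein needed for crossing over and chromosome synapsis, read 8.08, 7.90 and 8.21 in JQ1-treated mice and 7.51 and 7.70 in controls. The groups did not overlap, and the rise was 0.46 ± 0.16 (SE; limma, adjusted p = 0.0279). This call was lost without JQ1-treated mouse 3 (0.39, adjusted p = 0.0948) and without control mouse 1 (0.36, adjusted p = 0.201). Tex13a, another X-linked testis gene, had 11.02, 10.86 and 10.90 with JQ1 and 10.78 and 10.69 in controls. Its treated mice were also all higher, but the change of 0.19 ± 0.12 (SE) did not pass (limma, adjusted p = 0.217). Among the others, Tex16 had a change of 0.32 and Spata22, the partner of MEIOB in meiotic recombination, 0.30. Tex101, a surface protein of spermatocytes, spermatids and testicular sperm, had 0.25. Tex14, which keeps the intercellular bridges between germ cells open, was the one member of the class below 0, at -0.25 (limma, adjusted p = 0.137). The 95% intervals of the 5 that did not pass ran from -0.54 to 0.71.

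Markers of spermatogonia moved beside this class. Of 7 measured markers 4 were higher with JQ1, against 25.0% of all measured genes, with a list median of 0.44. The log2 of the markers' summed signal was 11.0 to 11.2 in JQ1-treated mice, against 10.4 to 10.6 in controls. The defining stem cell markers Zbtb16 and Id4 were among the 3 that did not pass, and Gfra1 was not kept. Markers of spermatocytes went the other way, with 4 of 10 measured lower (median -0.21), against 21.6% of all measured genes. The spermatocyte markers had a summed signal of 16.02 to 16.08 with JQ1, against 16.18 to 16.33 in controls. The part of either list in the change of the class was not tested.

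**Figure D2:**
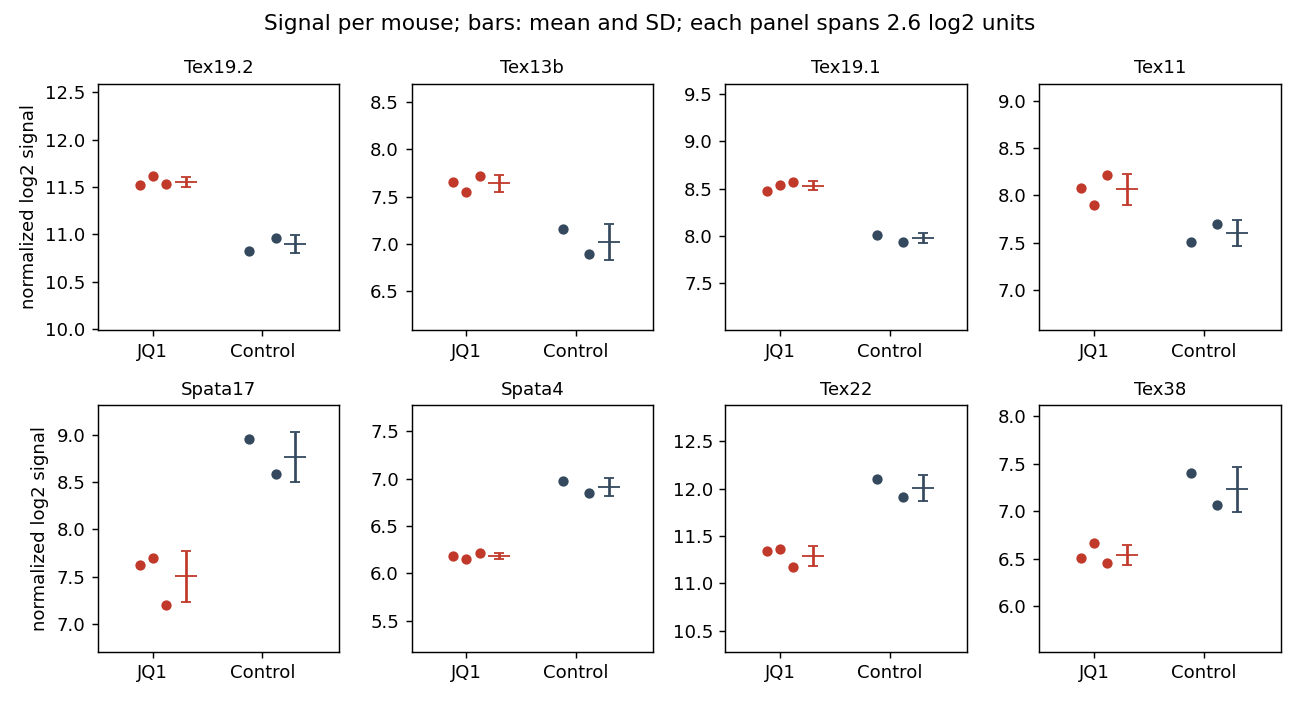
Normalized log2 signal of 8 members per mouse, JQ1-treated (n = 3) left of control (n = 2), with mean and SD beside the points; the panels have different origins but the same span. The treated mice lie above both controls for Tex19.2, Tex13b, Tex19.1 and Tex11, and below both for Spata17, Spata4, Tex22 and Tex38.

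In the spermatid class 9 of 26 members were lower with JQ1 (34.6%, against 21.6% of all measured genes), by limma 0 were higher (also 0 at an unadjusted p under 0.05, against 25.0% of all genes passing), and 17 did not pass. Its median was -0.23, or -0.11 with cyclic loess and -0.35 with median centring. The median in JQ1-treated mice 1, 2 and 3 was -0.16, -0.34 and -0.28 relative to the control mean. All members but Tex29 (0.15, limma, adjusted p = 0.317) had a change below 0. The lower members were Tex22 (-0.72), Tex38 (-0.69), Tex45 (-0.67), Spata16 (-0.61), Spata33 (-0.56), Spata31 (-0.53), Tex44 (-0.43), Spata3 (-0.32) and Tex37 (-0.31).

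Tex22, a protein of the acrosome region, had log2 signals of 11.35, 11.36 and 11.17 in JQ1-treated mice and 12.11 and 11.91 in controls. The treated mice were close together and all below the controls, with a change of -0.72 ± 0.12 (SE), a 1.64-fold reduction (limma, adjusted p = 0.00016). It passed without any single mouse. Tex38, whose CpG-poor window is shown above, read 6.50, 6.66 and 6.46 with JQ1 and 7.40 and 7.06 in controls. The groups were again separate (-0.69 ± 0.18, SE; limma, adjusted p = 0.0044), but the call was lost without control mouse 1 (-0.52, adjusted p = 0.0841). Tex45 had 8.38, 8.31 and 8.60 with JQ1, against 8.89 and 9.31 in controls. It did not overlap either (-0.67 ± 0.16, SE; limma, adjusted p = 0.0025) and was lost without control mouse 2 (-0.46, adjusted p = 0.0792).

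Spata16 is a Golgi protein needed to form the acrosome. Its signal was 9.20, 9.75 and 9.82 in JQ1-treated mice and 9.84 and 10.56 in controls. The groups nearly met, with JQ1-treated mouse 3 just below control mouse 1, and the change of -0.61 (limma, adjusted p = 0.0168) shrank to -0.25 without control mouse 2 (adjusted p = 0.388) and to -0.42 without JQ1-treated mouse 1 (adjusted p = 0.0777). Of 7 measured genes from a list for acrosome formation, 4 were lower as well, against 21.6% of all measured genes. The 4 were Zpbp2 (-1.01, limma, adjusted p = 1.34e-05) and Zpbp (-0.60), sperm head proteins that bind the zona pellucida, with Golga3 (-0.53) and Agfg1 (-0.47). The other 3 did not pass.

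Spata33 anchors calcineurin in sperm and takes part in mitophagy. It read 10.34, 10.43 and 10.49 in JQ1-treated mice, against 11.19 and 10.77 in controls. The groups were separate and the change was -0.56 ± 0.14 (SE; limma, adjusted p = 0.00347), falling to -0.35 without control mouse 1 (adjusted p = 0.137). Both measured subunits of sperm calcineurin were lower too. Ppp3cc, the catalytic subunit, changed by -0.64 (limma, adjusted p = 0.000581), and Ppp3r2, the regulatory subunit, by -0.78 (limma, adjusted p = 9.35e-05).

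Spata31, of a multigene family on chromosome 13, passed at -0.53 (limma, adjusted p = 0.0148) and was lost without control mouse 1 (-0.35, adjusted p = 0.226) or JQ1-treated mouse 3 (-0.39, adjusted p = 0.0715). Of its relatives, Spata31d1a had -0.16 and Spata31d1d -0.04, neither passing, and Spata31d1c, whose stage was not assigned, had -0.55. These paralogs are similar in sequence, so the share of each in a probe's signal is uncertain. Tex44, Spata3 and Tex37 were each lost in 4 of the 5 fits without 1 mouse, where the change was -0.51 to -0.38 for Tex44, -0.36 to -0.25 for Spata3 and -0.38 to -0.24 for Tex37, with adjusted p up to 0.101, 0.146 and 0.27.

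The 17 spermatid members that did not pass had changes of -0.33 to 0.15, with 95% intervals between -0.66 and 0.40. Spata19, a mitochondrial protein of the sperm midpiece, had 14.06, 13.91 and 13.81 with JQ1 and 14.17 and 14.00 in controls. Its groups overlapped (-0.16 ± 0.12, SE; limma, adjusted p = 0.276). Among 5 genes listed beside it for the midpiece and its mitochondria, Gk2, a sperm glycerol kinase-like protein, was lower at -0.76 and Gpx4, a selenoprotein of the mitochondrial sheath, at -0.29, and 3 did not pass. A list of 8 measured CatSper calcium channel genes had 5 lower, against 21.6% of all measured genes. It was written for Tex40, which is not a symbol of this platform.

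Round spermatid markers had a median change of -0.22, with 4 of 12 measured lower, against 21.6% of all measured genes. The summed log2 signal of these markers was 14.9 to 15.0 in JQ1-treated mice, against 15.2 in both controls (15.20 and 15.21). Elongating spermatid markers had a median of -0.10, and by limma 0 of 11 passed (0 in either direction at an unadjusted p under 0.05). Their summed log2 signal was 16.9 to 17.1 with JQ1 and 17.0 in both controls. Somatic markers rose. Of 12 measured Sertoli cell markers 10 were higher (median 1.33) and of 5 Leydig cell markers all 5 were (median 1.15), against 25.0% of all measured genes. Gata1, among the 10, was detected in neither control, so its probe was kept through the JQ1-treated mice alone. Sertoli cell markers had a summed log2 signal of 15.3 to 15.6 with JQ1, against 14.0 to 14.2 in controls. Leydig cell markers had 14.5 to 15.1 with JQ1, against 13.4 to 13.6 in controls. Of 8 macrophage markers 6 were higher (median 0.82), against the same 25.0% of all measured genes. Their summed log2 signal was 11.4 to 12.0 with JQ1, against 10.9 to 11.2 in controls. Among defining markers, Amh, Gata4, Sycp3 and Dmc1 had no kept probe. The part of any of these lists in the lower signal of spermatid members was not tested.

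**Figure D3:**
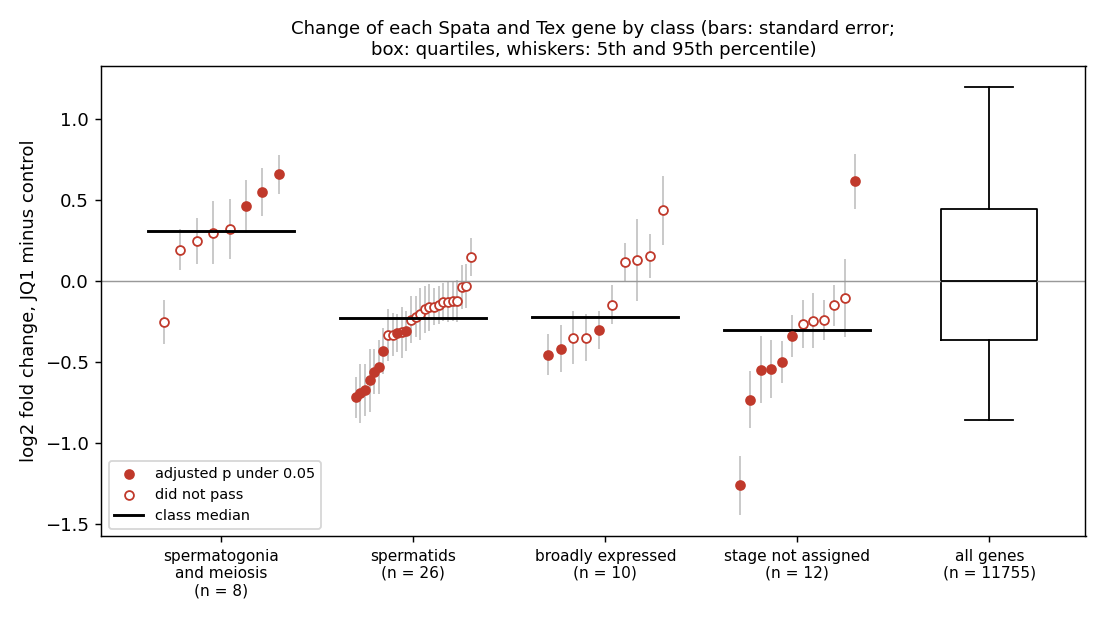
Log2 fold change (JQ1 minus control, with SE) of every measured member by class, filled where the adjusted p is under 0.05, with the class median as a bar and the spread of all 11755 measured genes as a box. The medians are 0.31 for spermatogonia and meiosis, -0.23 for spermatids, -0.22 for broadly expressed members and -0.30 where no stage was assigned.

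Of 10 broadly expressed members 3 were lower (30%, against 21.6% of all measured genes), and by limma 0 were higher (also 0 at an unadjusted p under 0.05, against 25.0% of all genes passing). Their median was -0.22, or -0.10 with cyclic loess and -0.075 with the mean of all kept probes of a gene. The lower ones were Tex2, Tex10 and Spata24. Tex2, a lipid-binding protein of the endoplasmic reticulum, had 10.14, 10.07 and 10.13 with JQ1, against 10.57 and 10.57 in controls. The mice of each group were nearly alike and far apart from the other group (-0.46 ± 0.13, SE; limma, adjusted p = 0.00683). Without control mouse 1 it just missed the threshold (-0.45, adjusted p = 0.058).

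Tex10, a nucleolar protein of the RIX1 complex in ribosome assembly, read 9.27, 9.03 and 9.05 with JQ1 and 9.40 and 9.67 in controls. The groups did not overlap (-0.42 ± 0.15, SE; limma, adjusted p = 0.0277), and the call was lost without JQ1-treated mouse 2 or 3 or control mouse 2 (-0.37, -0.38 and -0.28). Of 6 measured genes of that complex and its partners, Pelp1 was lower (-0.47, limma, adjusted p = 0.0282) and 5 did not pass. Spata24, which binds a TBP-like protein and is abundant in testis, had 13.28, 13.45 and 13.17 with JQ1 and 13.67 and 13.53 in controls. Its change of -0.30 ± 0.12 (SE; limma, adjusted p = 0.045) was lost in 4 of 5 fits without 1 mouse, where it lay between -0.37 and -0.23. Its dimmer probes had -0.07 and -0.12 and did not pass.

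Of the broadly expressed members that did not pass, Tex30, a gene of unsettled function, had 12.52, 12.65 and 12.71 with JQ1 and 12.51 and 12.51 in controls. All treated mice were higher by a little (0.12 ± 0.11, SE; limma, adjusted p = 0.428). Spata2 links the deubiquitinase CYLD to the linear ubiquitin ligase. It had 5.67, 5.64 and 5.70 with JQ1 and 4.93 and 5.55 in controls. The groups did not overlap, but the controls stood far apart, the lower of them not detected above background, and the change of 0.44 did not pass (limma, adjusted p = 0.102). Cyld itself was higher by 0.58 (limma, adjusted p = 0.00468), and the other 4 genes listed with it did not pass. Spata7, a protein of the photoreceptor connecting cilium, showed the widest control spread, 8.66 and 7.37, around treated values of 8.26, 8.27 and 7.91.

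Among members with no assigned stage 6 of 12 were lower (50%, against 21.6% of all measured genes) and 1 higher (8.33%, against 25.0%), with a median of -0.30. Spata17, an IQ-motif protein, was the most changed member of all. Its signal was 7.62, 7.69 and 7.20 in JQ1-treated mice, against 8.95 and 8.58 in controls. Every treated mouse was well below both controls, and the means were 7.50 ± 0.27 (SD, n = 3) with JQ1 and 8.76 ± 0.26 (SD, n = 2) in controls. The change was -1.26 ± 0.18 (SE), a 2.40-fold reduction (limma, adjusted p = 2.47e-05), and it was between -1.45 and -1.08 in fits without 1 mouse. A dimmer Spata17 probe had -0.44 and did not pass (limma, adjusted p = 0.0677). The difference between the 2 probes was not tested, and the groups did not overlap at either.

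Spata4 read 6.18, 6.15 and 6.22 with JQ1 and 6.98 and 6.84 in controls. The treated mice were nearly alike and all below the controls (-0.73 ± 0.18, SE; limma, adjusted p = 0.00263), and the call held without any single mouse. Tex13b, an X-linked gene, went up, with 7.65, 7.55 and 7.72 in JQ1-treated mice and 7.16 and 6.89 in controls. The groups were separate (0.61 ± 0.17, SE; limma, adjusted p = 0.00596), and the call was lost without control mouse 2 (0.48, adjusted p = 0.0798). At its dimmer probe, which was detected in all 3 JQ1-treated mice and in neither control, signal was at least 1.10-fold higher with JQ1. That bound is set by the lowest signal that counts as detected. The dimmer probe was kept through the JQ1-treated mice alone, so it gives the rise no separate support.

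The other lower members of this class were Spata31d1c (-0.55), Tex24 (-0.54), Tex47 (-0.50) and Spata48 (-0.34), a microtubule inner protein of the sperm tail. For Spata31d1c the treated values were 7.78, 7.49 and 7.70 and the controls 8.63 and 7.77. The groups overlapped, and without control mouse 1 the change was -0.12 (limma, adjusted p = 0.702). Its call was also lost without JQ1-treated mouse 2 (-0.46) or 3 (-0.57). Tex24 was lost without JQ1-treated mouse 1 (-0.40) or control mouse 1 (-0.38), Tex47 without control mouse 1 (-0.44), and Spata48 in 4 of 5 such fits (-0.41 to -0.27). Spata45 did not pass. It had 11.86, 12.13 and 11.81 with JQ1 and 12.11 and 12.05 in controls, with overlapping groups (-0.15 ± 0.13, SE; limma, adjusted p = 0.355).

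The members were also counted by name. Of 25 measured Spata genes 9 were lower and by limma 0 higher (0 also at an unadjusted p under 0.05). Of 31 Tex genes 9 were lower and 4 higher. Among all measured genes 21.6% were lower and 25.0% higher, and the difference between the names was not tested. The 4 higher members were 2 X-linked genes, Tex11 and Tex13b, and the chromosome 11 neighbors Tex19.1 and Tex19.2. Of the 5 measured members on the X chromosome (Tex11, Tex13a, Tex13b, Tex13c1 and Tex16), 2 were higher and by limma 0 lower (0 also at an unadjusted p under 0.05), with a median of 0.32. Many other genes of that chromosome were higher as well. Of its 422 measured genes 48.6% were higher and 5.92% lower, with a median of 0.45, so 2 of 5 X-linked members is close to the share of that chromosome. Among the 51 members on other chromosomes 2 were higher and 18 lower, with a median of -0.24.

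Of the measured members 19 had more than 1 kept probe, which gives a second reading of the same gene. In 16 all probes had the same sign, and in 3 (Tex13a, Tex261 and Tex264) they did not. In 10 a dimmer probe lay further from 0 than the representative probe, with the same sign. Tex13b is in both counts, although its dimmer probe was kept through the JQ1-treated mice alone. A total of 4 genes passed only at a dimmer probe. Spata6, a protein of the connecting piece that joins sperm head and tail, had -0.13 at its representative probe (limma, adjusted p = 0.391), with 12.86, 12.69 and 12.95 with JQ1 and 13.00 and 12.93 in controls. At its 2 dimmer probes it changed by -0.73 and -0.70, and both passed (limma, adjusted p = 0.00252 and 0.0118).

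Spata18, a mitochondrial quality control protein, had -0.22 at the representative probe and -0.47 at the dimmer one (limma, adjusted p = 0.162 and 0.0187). Tex9 had -0.35 and -0.58, of which the second passed. Tex261, a membrane protein of the early secretory pathway, was the case with opposite signs, at -0.14 for its representative probe and 0.22, 0.35 and 0.57 for the others, of which the last passed (limma, adjusted p = 0.00335). Counting a gene by any of its kept probes gave 5 higher and 21 lower members, and 0 with probes passing in both directions. Such a count gives every gene with several probes more chances to pass. The share of all measured genes under it was not computed. No probe of the 4 reached 2-fold. Which transcripts each probe reads was not analyzed here.

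**Figure D4:**
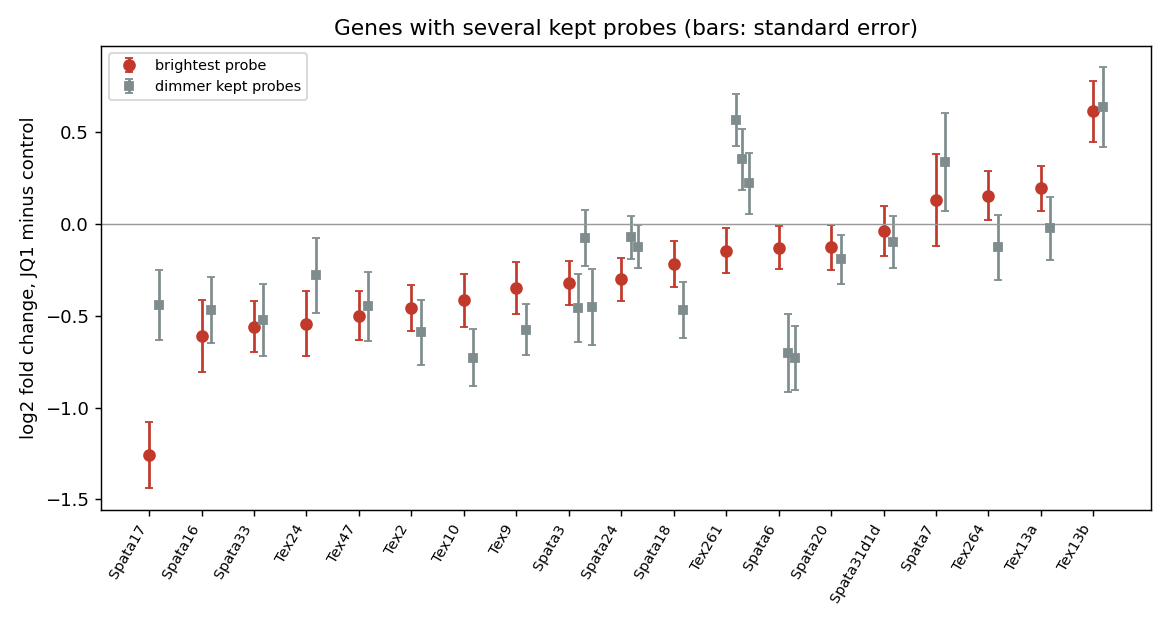
Log2 fold change (JQ1 minus control, with SE) at every kept probe of the 19 members with several, circles for the representative probe and squares for dimmer ones. Spata6 lies at -0.13 by its representative probe and at -0.73 and -0.70 by the others, and the 4 Tex261 probes span 0.

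The partner genes of members with a known role gave further values. Of 102 listed partners 81 were measured. Of these, 8 were higher, 25 lower and 48 did not pass, against 25.0% higher and 21.6% lower among all measured genes. Partners past 2-fold were Zpbp2, Dnmt3l, a DNA methylation cofactor listed with the unmeasured Tex15, and Sar1a, a GTPase of vesicle coats listed with Tex261. Dnmt3l had 8.23, 7.91 and 7.57 with JQ1 and 9.14 and 9.60 in controls (-1.47, limma, adjusted p = 7.98e-06). Sar1a had 8.56, 8.75 and 8.71 with JQ1 and 7.52 and 7.82 in controls (1.00, limma, adjusted p = 5.87e-05). Both were separate between the groups, in opposite directions.

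Partners did not always follow their member. Rpa1, a single-strand DNA binding protein listed with Spata22, was lower, with a change of -0.77, whereas Spata22 itself had 0.30 and did not pass. Rbm44, an RNA-binding protein of the intercellular bridge, was lower, at -0.88, beside the -0.25 of Tex14. Bnip3l and Fundc1, receptors of mitochondrial autophagy listed with Spata18, were higher by 0.91 and 0.83, whereas both Spata18 probes were below 0. For Tex264, a receptor of autophagy of the endoplasmic reticulum, 3 of 7 partners were higher and 1 lower (25.0% and 21.6% of all measured genes). Tex264 itself had 0.15 and -0.13 at its probes, neither passing. Adam3, a sperm surface protein that depends on Tex101, was lower, at -0.49 (limma, adjusted p = 0.0043), beside 0.25 for Tex101.

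Promoter windows of the members were sparse in CpG. Each was taken at the first listed start, which for some genes, such as Tex9, Tex16 and Tex38, lies inside the annotated gene. Of the 56 measured members 48 had an entry in the RefSeq promoter table, where the window described above held a median of 4 CpG. The 9536 measured genes with an entry had a median of 19, and the median over all 27025 entries was 7. A window with fewer than 6 CpG was found in 27 members (56.2%), against 15.6% of measured genes and 43.6% of all entries. The class medians were 4 for 24 spermatid members, 3 for 10 members of no assigned stage, 17.5 for 6 of spermatogonia and meiosis, and 25.5 for 8 broadly expressed members. Of the spermatid members 75.0% had fewer than 6, whereas none of the 8 broadly expressed members did. The 15 lower members with an entry had a median of 4, as all members did, and the 3 higher ones 13.

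Exact motif matches on either strand of these windows were few. The cyclic AMP response element TGACGTCA, the site of CREM-type factors, was found in 1 of 48 members, Spata7 (2.08%), against 3.09% of measured genes. The E-box CACGTG was found in 4 members (8.33%, against 9.74%), the TATA letters TATAAA in 4 (8.33%, against 8.13%), among them the Tex19.1 window shown above, and the E2F letters GCGGGAA in 5 (10.4%, against 7.80%). None of these 4 motifs contains another. A match is a description of the sequence only.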

How the data were processed

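RNA of whole testes of 3 JQ1-treated and 2 control mice was measured on 6 Illumina bead arrays, grouped by the agent given in the labels. The authors deposited, for every probe, a linear raw signal intensity, a detection p-value and a processed intensity that they had background-corrected and normalized. Of the processed values 30.3% lie below 0. The bead array software and its version are not given in the sources used here. No per-sample column was left unassigned.

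Raw intensities were corrected by normexp with negative controls inferred from the detection p-values (offset 16), brought to the same quantiles and log2-transformed in R 4.3.3 with limma 3.58.1, and the arrays of control mouse 1 were averaged. The 20901 probes detected (p under 0.05) in 2 or more mice, 17686 of them with 1 gene symbol, were fitted with lmFit and eBayes with an intensity trend, with Benjamini-Hochberg adjustment over all of them. The fit was tested on simulated data. The number of arrays limits the precision. P-values, standard errors and intervals rest on the spread between these mice after limma has shared it across probes.

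Probe names come from the platform annotation, in which 34885 probes have 1 symbol, 18 several and 10378 none. All 62 members matched a gene ID of the RefSeq annotation of GRCm38.p6, used for current names, chromosomes and promoter sequences. Members, classes and lists were chosen with earlier results of these data known. Every member that passed is named. Values per mouse are given for the 3 passing members with the largest change in each class, for the brightest that did not pass, and for others chosen after their values were seen. Partner genes are those past 2-fold and up to 3 others per member.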

Additional observations from a re-analysis of the deposited data

How the results depend on the processing

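The 22 called members were refitted under 17 alternatives, and of 374 values 298 passed again in the same direction, 76 missed the threshold and 0 reversed. Spata17, Spata4, Tex19.1, Tex19.2 and Tex22 passed in every alternative. The number of lower members was 8 with cyclic loess, 25 with median centring and 11 without the intensity trend, and in fits without 1 mouse it was 7 to 19. The number of higher members was 3 to 4 in fits without 1 mouse and 5 with cyclic loess or median centring. Of all 20901 kept probes 3728 were lower with cyclic loess, 3983 with median centring and 4429 without the intensity trend. Spata17 fell under 2-fold without background correction and with the mean of all kept probes of a gene, leaving 0 members at least 2-fold lower. With cyclic loess the median change was -0.11 for all members, -0.11 for spermatid members, 0.39 for those of spermatogonia and meiosis and -0.10 for broadly expressed ones. With median centring it was -0.32 for all members, -0.35 for spermatid members and 0.45 for spermatogonia and meiosis. Without the filter on dim probes the median of all members was -0.17, and with the mean of all kept probes that of broadly expressed members was -0.075. The median of spermatogonia and meiosis was 0.20 without background correction, 0.37 with the authors' processed intensities floored at 1, 0.39 and 0.25 with only the first or the second array of control mouse 1, and 0.25 to 0.37 in fits without 1 mouse. The cause of these shifts was not tested. With the replicate number as a block, 3 members were higher and 15 lower, with medians of -0.20 for all members, -0.23 for spermatids, 0.30 for spermatogonia and meiosis and -0.18 for broadly expressed members. Of all 20901 kept probes 4254 were higher and 4343 lower with that block. JQ1-treated mouse 3 has no control of the same number, so the block takes it out of the comparison. These medians are therefore those of the fit without that mouse, not a separate check. Deviations of same-numbered mice correlated at 0.15 and 0.022 across members. With 2 controls the deviations of 1 mirror those of the other, so these values cannot decide whether mice were paired. Members near the detection limit, such as Spata2 and Spata9, carry the least information.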
